A study of Mus musculus with 22 samples.

Results

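The Hox genes are the 39 mouse homeobox genes whose symbol is Hox followed by the letter of a cluster (a to d) and a number, out of 55406 genes present in both deposited tables. They were chosen by name alone, without regard to any measured value. Their RNA was measured in whole brains of mice at postnatal day 0, in which poly(A)-selected libraries were sequenced without keeping the strand. The brains came from 2 mouse models of Prader-Willi syndrome and their wild-type (WT) littermates, and the comparisons asked how each deletion altered the newborn brain transcriptome.

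PWS-cr mice are heterozygous for a deletion of the critical interval of the Prader-Willi region, which holds the *Snord116* small nucleolar RNAs, inherited from the father. PWS-IC mice are heterozygous for a deletion of the imprinting centre inherited from the father, which silences the paternally expressed genes of the region. Both deletions are germline, so that all cells of the brain carry them. The PWS-cr series held 6 PWS-cr and 5 WT libraries from 4 litters, and the PWS-IC series held 4 PWS-IC and 5 WT libraries from 2 litters. All pups were 0 days old, and both sexes were used. A library label gives the litter, then the pup, then the series, so that 3_5_Cr is a pup of litter 3 of the PWS-cr series. PWS-cr litter 2 had 1 library with a column here, 2_2_Cr, which adds nothing to a genotype difference taken within litters. Each library came from its own pup.

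Hox proteins are transcription factors that give cells their identity along the head-to-tail axis. The genes lie in clusters, and the order of genes along a cluster matches the order of their expression borders along the body, so that low-numbered genes start in the hindbrain and higher-numbered genes start progressively further down the spinal cord. The forebrain and midbrain normally express little or none of them. Genes with the same number in different clusters, called paralogues, descend from 1 ancestral gene and have similar borders.

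In the mm10 genome with GENCODE M21 annotation, cluster A held 11 genes on chromosome 6 (chr6:52155590-52260880), cluster B 10 genes on chromosome 11 (chr11:96194316-96368256), cluster C 9 genes on chromosome 15 (chr15:102921103-103036852) and cluster D 9 genes on chromosome 2 (chr2:74668310-74765142). Paralogue groups 1 to 4 held 12 genes, groups 5 to 9 held 15 genes and groups 10 to 13 held 12 genes.

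The homeobox, the 180 bases that code for the 60-residue DNA-binding domain, is what Hox genes share most, and the sequences below show how far its members can be told apart by sequencing. *Hoxa5* had the highest mean level of all Hox genes here, and *Hoxb8* is a gene of another paralogue group whose level departed from that of the group 5 genes in some libraries. Capitals mark bases that differ from *Hoxa5*. The coding strand is given, 5′ to 3′, from the GENCODE M21 transcripts.
Hoxa5: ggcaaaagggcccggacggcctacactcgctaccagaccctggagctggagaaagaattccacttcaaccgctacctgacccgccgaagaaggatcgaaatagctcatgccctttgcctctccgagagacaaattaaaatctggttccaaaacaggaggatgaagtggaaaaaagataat
Hoxb8: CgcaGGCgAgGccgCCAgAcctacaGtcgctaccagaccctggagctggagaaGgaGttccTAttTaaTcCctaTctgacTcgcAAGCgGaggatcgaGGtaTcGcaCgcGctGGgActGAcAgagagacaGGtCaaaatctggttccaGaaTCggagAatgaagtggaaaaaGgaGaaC

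*Hoxb8* differed from *Hoxa5* at 47 of the 180 bases. Over all 39 genes, homeoboxes of the same paralogue group shared a median of 145 bases (42 pairs, 121 to 169), and homeoboxes of different groups a median of 109 (699 pairs, 83 to 160). Over their whole transcripts the longest identical run between any pair of 8 well-measured genes (*Hoxa4*, *Hoxb4*, *Hoxc4*, *Hoxd4*, *Hoxa5*, *Hoxb5*, *Hoxc5* and *Hoxb8*) was 13 to 29 bases (28 pairs), so that reads longer than this carry at least 1 base that separates these paralogues. The larger uncertainty is overlap within a cluster. Because strand was not kept, a read from an antisense transcript can be counted for the Hox gene it overlaps. In all, 16 of the 39 genes share exon bases with another annotated gene. Not all of this is antisense, since *Hoxd3* shares bases with *Hoxd4*, and *Hoxc5* with *Hoxc10*, on the same strand. The share was above 50% for *Hoxb3* (52.9%, all with *Hoxb3os*), *Hoxd3* (62.8%) and *Hoxd4* (52.3%), whose counts are therefore uncertain, and it was 0 for *Hoxa5*, *Hoxb8* and *Hoxc4*.

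Sequence upstream of the start was given for 22 of the 39 genes in RefSeq promoters (GRCm38.p6). The 250 bases before the start are shown for *Hoxa5* (chr6:52204588-52204837, minus strand) and *Hoxb8* (chr11:96281655-96281904, plus strand), because the levels of these genes moved together in some libraries and apart in others. No base is in capitals because none of the motifs searched was found in either window.
Hoxa5: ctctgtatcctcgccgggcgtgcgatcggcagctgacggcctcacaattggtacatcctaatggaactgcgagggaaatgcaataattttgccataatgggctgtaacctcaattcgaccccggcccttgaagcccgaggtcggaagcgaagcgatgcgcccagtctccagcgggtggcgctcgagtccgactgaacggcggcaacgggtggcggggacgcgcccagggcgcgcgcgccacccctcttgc
Hoxb8: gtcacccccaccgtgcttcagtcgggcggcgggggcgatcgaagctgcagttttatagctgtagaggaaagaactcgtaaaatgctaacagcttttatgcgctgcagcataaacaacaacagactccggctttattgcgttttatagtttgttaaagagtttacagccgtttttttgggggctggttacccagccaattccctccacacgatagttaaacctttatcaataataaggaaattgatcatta

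On both strands of such 250-base windows, the letters TGATTNAT, bound by PBX-HOX pairs, stood in 2 of 24 Hox windows (8.33%, those of *Hoxa2* and *Hoxd11*) and in 2.82% of 32851 windows of all genes. CCATAAA, bound by the CDX proteins that act on caudal Hox genes, stood in 1 Hox window (4.17%, that of *Hoxd4*) and in 2.43% of all. The DR5 repeat of retinoic acid receptors (AGGTCA, 5 bases of any kind, AGGTCA) was in 0 Hox windows and in 0.00913% of all. These are matches of letters in windows next to the start, and distant elements were not searched.

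Total counts per library ran from 45798407 to 62103143. At this depth a gene with 0 counts in a library may still be present at up to 0.0483 to 0.0655 CPM (counts scaled to a common library total), the level that 3 counts give. Such limits and the intervals below cover counting error only. In 2 libraries of the PWS-IC series marker genes went against the labels. *Snrpn*, a paternally expressed gene that the deletion silences, reached 18116 counts in the library labelled 1_3_IC, a PWS-IC female, where the Y-linked *Eif2s3y* stood at 3191 and *Xist*, the RNA of the inactive X, at 64. In the library labelled 1_7_IC, a WT male, *Xist* stood at 124574 counts, *Snrpn* at 343 and *Eif2s3y* at 9. The other PWS-IC libraries had 255 to 425 counts of *Snrpn*. Libraries are named by their labels throughout, so that PWS-IC and WT in this series mean the labelled genotype, and tests of this series are given with and without both libraries.

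The main feature of the Hox genes in these brains was how much they differed from one pup to the next. Over all 39 genes together a library had between 111 counts (1_1_Cr) and 6769 counts (3_5_Cr), although the totals of the libraries differed little. Between these extremes lay other pups of the same litters and genotypes. In whole-tissue RNA, fewer Hox-expressing cells and less Hox RNA per cell cannot be told apart.

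**Figure D1:**
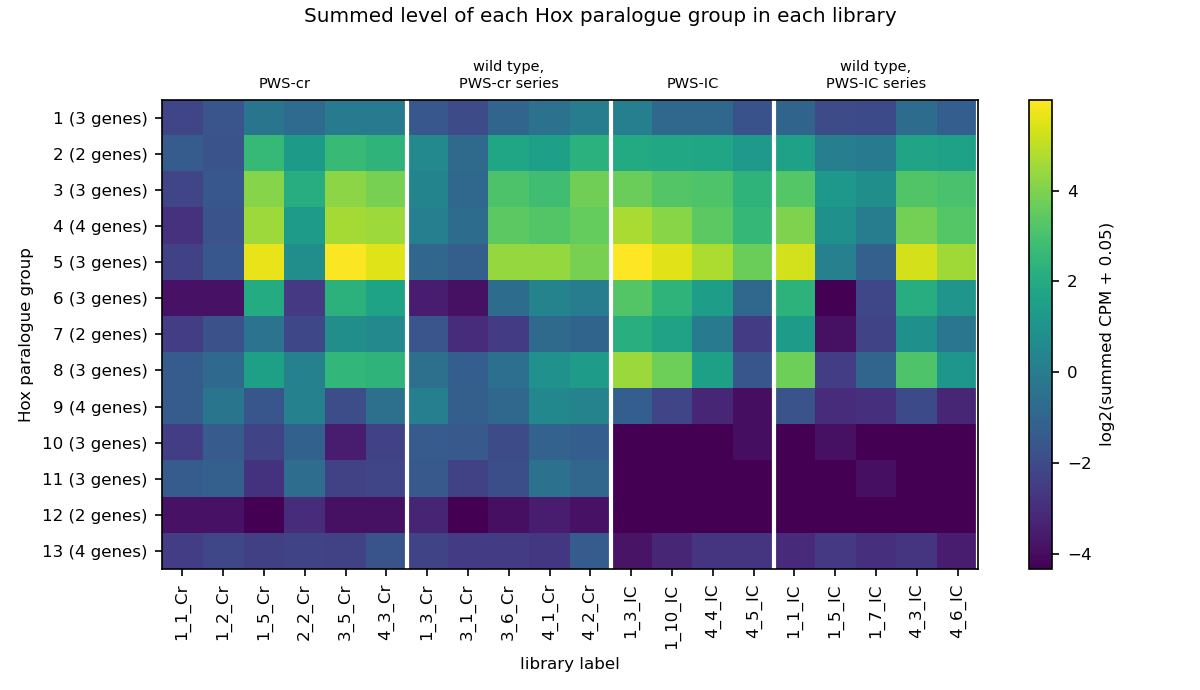
Summed level of each Hox paralogue group (rows, with the number of genes) in each of the 20 libraries (columns, by genotype and series), coloured by log2 of summed CPM plus 0.05. The 7 columns with little Hox RNA (1_1_Cr, 1_2_Cr, 1_3_Cr, 2_2_Cr, 3_1_Cr, 1_5_IC and 1_7_IC, 2.42 to 15.1 summed CPM over all Hox genes) stand beside columns with 27.4 to 143, and the rows of groups 10 to 13 are the dimmest.

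CPM values were scaled once over all 20 libraries. Summed CPM of paralogue groups 1 to 4, the genes of the hindbrain and uppermost cord, was 0.786 to 50.1 in PWS-cr libraries, with a median of 26.3. Their WT littermates had 3.97 (1_3_Cr), 1.81 (3_1_Cr), 23.0 (3_6_Cr), 20 (4_1_Cr) and 30.9 (4_2_Cr). PWS-IC libraries had 43.6 (1_3_IC), 31.4 (1_10_IC), 23.3 (4_4_IC) and 13.5 (4_5_IC). The WT libraries of the PWS-IC series had 29.0 (1_1_IC), 5.19 (1_5_IC), 3.76 (1_7_IC), 27.3 (4_3_IC) and 21.1 (4_6_IC). Mutant and WT libraries overlapped in both series. The highest library had 63.7 times the level of the lowest.

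Groups 5 to 9, genes of the caudal hindbrain and spinal cord, spread further, 99.5-fold between 1_1_Cr and 1_3_IC. Their summed CPM in PWS-cr libraries was 1.00 in 1_1_Cr, 1.85 in 1_2_Cr and 4.15 in 2_2_Cr, but 58.5 in 1_5_Cr, 74.0 in 3_5_Cr and 55.2 in 4_3_Cr. PWS-cr libraries thus lay at both ends of the range of their series. The WT libraries had 2.52 (1_3_Cr), 1.24 (3_1_Cr), 22.5 (3_6_Cr), 25.2 (4_1_Cr) and 19.8 (4_2_Cr). In the PWS-IC series the libraries labelled PWS-IC had 99.9 (1_3_IC), 67.3 (1_10_IC), 33.2 (4_4_IC) and 13.7 (4_5_IC), and those labelled WT had 60.1 (1_1_IC), 1.31 (1_5_IC), 1.28 (1_7_IC), 54.7 (4_3_IC) and 28.2 (4_6_IC). Pups of 1 litter could therefore be near both ends of the range: litter 1 of the PWS-cr series ran from 1.00 to 58.5, and litter 1 of the PWS-IC series from 1.28 to 99.9.

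**Figure D2:**
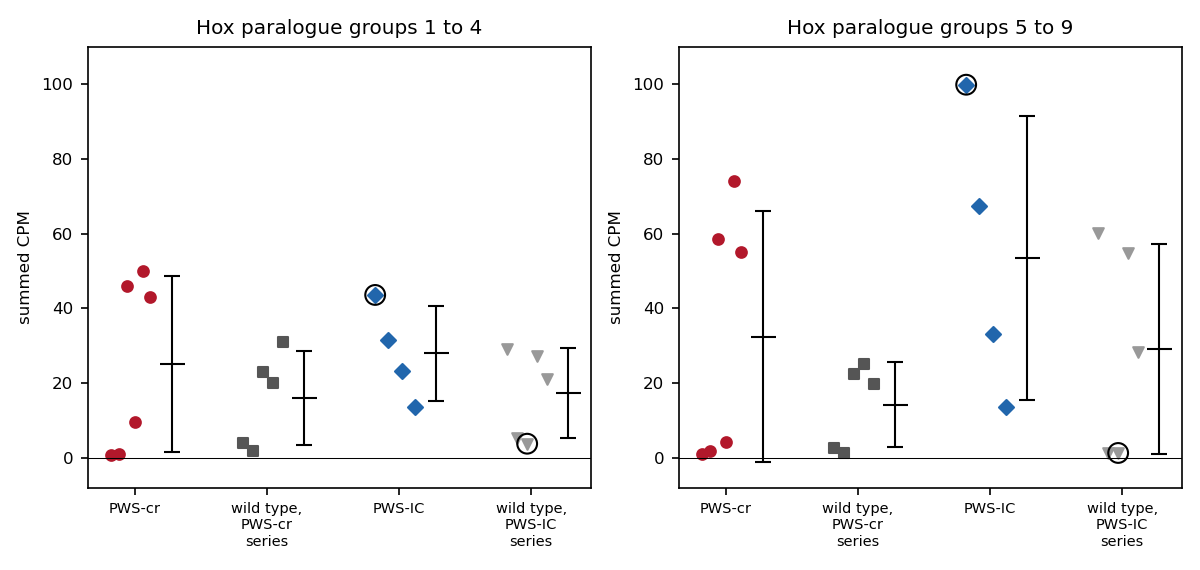
Summed CPM of Hox paralogue groups 1 to 4 (left) and 5 to 9 (right) in each library by genotype, with the mean and SD of each group beside the points; rings mark the libraries labelled 1_3_IC and 1_7_IC. Mutant and WT libraries overlap in both series, and the PWS-cr libraries fall into 3 low ones (1.00 to 4.15 in groups 5 to 9) and 3 high ones (55.2 to 74.0).

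This spread was large beside that of other genes. The SD of log2 CPM between libraries of the PWS-cr series had a median of 2.03 over the 26 Hox genes tested there, against 0.157 over all 22171 genes of the joint table tested, and 25 of the 26 lay above the 95th percentile of all genes (0.561). *Hoxd8*, the exception, had the lowest (0.477) and *Hoxa5* the highest (3.39). In the PWS-IC series the median was 1.60 over 18 Hox genes against 0.271 over 22367 genes, and 16 of the 18 lay above the 95th percentile (0.729). *Hoxb8* had the highest SD there, 3.08. Without 1_3_IC and 1_7_IC the median was 1.16 against 0.190, with 16 of the 18 above the 95th percentile (0.599).

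Levels of different genes are compared per length, as the deposited FPKM (fragments scaled by transcript length and library size). *Hoxa5* had the highest mean FPKM, 6.44 ± 6.04 (SD, n = 20 libraries), followed by *Hoxb5* (3.56 ± 3.22), *Hoxc4* (2.08 ± 1.71), *Hoxa4* (1.53 ± 1.33), *Hoxb8* (1.42 ± 2.07) and *Hoxa2* (1.21 ± 0.791). These were the 6 Hox genes with a mean FPKM above 1, and 14 genes exceeded 1 in at least 1 library. Each gene's range over libraries overlapped that of the next in the order. Within libraries, *Hoxa5* was above *Hoxb5* in 18 of 20 and *Hoxc4* above *Hoxa4* in 19, while *Hoxb8* was above *Hoxa2* in only 5. Genes of higher number tended to have lower levels. Mean FPKM and paralogue number had a Spearman rho of -0.70 across the 39 genes, which are not independent replicates, and rho within single libraries ran from -0.76 to 0.073. *Hoxd4* had the lowest mean among the genes of group 4, 0.148 FPKM against 0.827 for *Hoxb4*. Its level is uncertain, because 52.3% of its exon bases are shared with other genes.

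Of the genes of groups 1 to 4, *Hoxa2*, which patterns the rhombomeres of the hindbrain, had counts in every library. It had 1 to 270 counts in the PWS-cr series and 45 to 155 in the PWS-IC series. In CPM, PWS-cr libraries had 0.0201 to 4.96 with a median of 2.58, and their WT littermates had 0.988 (1_3_Cr), 0.444 (3_1_Cr), 2.53 (3_6_Cr), 1.83 (4_1_Cr) and 3.48 (4_2_Cr). PWS-IC libraries had 2.46 (1_3_IC), 2.97 (1_10_IC), 2.83 (4_4_IC) and 1.86 (4_5_IC), and their WT littermates 2.25 (1_1_IC), 0.843 (1_5_IC), 0.772 (1_7_IC), 2.40 (4_3_IC) and 2.20 (4_6_IC). The groups overlapped in both series, and the library labelled 1_3_IC, which led for the caudal genes, was in the middle for *Hoxa2*.

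*Hoxa4* and *Hoxc4*, whose borders lie at the lower end of the hindbrain, covered a wider range. *Hoxa4* had 0 to 6.07 CPM in PWS-cr libraries (median 2.63), and 0.242 (1_3_Cr), 0.111 (3_1_Cr), 2.55 (3_6_Cr), 1.86 (4_1_Cr) and 2.49 (4_2_Cr) in WT littermates. It had 7.08 (1_3_IC), 4.52 (1_10_IC), 2.55 (4_4_IC) and 1.73 (4_5_IC) in PWS-IC libraries, and 3.28 (1_1_IC), 0.431 (1_5_IC), 0.230 (1_7_IC), 3.49 (4_3_IC) and 2.24 (4_6_IC) in theirs. *Hoxc4* was lowest and highest in the same PWS-cr and PWS-IC libraries as *Hoxa4*. Its CPM was 0.0437 to 11.9 in PWS-cr libraries (median 6.18), and 0.634 (1_3_Cr), 0.259 (3_1_Cr), 5.52 (3_6_Cr), 5.35 (4_1_Cr) and 6.28 (4_2_Cr) in WT littermates. In the PWS-IC series it was 13 (1_3_IC), 9.28 (1_10_IC), 5.75 (4_4_IC) and 2.67 (4_5_IC) in libraries labelled PWS-IC and 8.59 (1_1_IC), 1.01 (1_5_IC), 0.542 (1_7_IC), 7.37 (4_3_IC) and 4.88 (4_6_IC) in those labelled WT. Mutant and WT libraries overlapped for both genes.

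*Hoxb1* and *Hoxd1*, of group 1, were scarce. *Hoxd1* had at most 11 counts, and *Hoxb1*, which marks a single rhombomere, had at most 16. The genes of groups 2 to 4 other than those described (*Hoxb2*, *Hoxa3*, *Hoxb3*, *Hoxd3*, *Hoxb4* and *Hoxd4*) had maxima of 52 to 377 counts in the PWS-cr series and 45 to 248 in the PWS-IC series.

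*Hoxa5* and *Hoxb5*, paralogues of the caudal hindbrain and cervical cord, had the highest counts of all Hox genes in the libraries with much Hox RNA. *Hoxa5* had 1 count in 1_1_Cr, 6 in 1_2_Cr, 40 in 2_2_Cr, 1394 in 1_5_Cr, 1186 in 4_3_Cr and 1782 in 3_5_Cr. The WT libraries of this series had 13 (1_3_Cr), 9 (3_1_Cr), 584 (3_6_Cr), 540 (4_1_Cr) and 346 (4_2_Cr). In CPM this was 0.0218 to 32.8 (median 11.9) in PWS-cr and 0.167 to 10.4 (median 7.13) in WT, and the ranges overlapped. In the PWS-IC series *Hoxa5* had 33.5 (1_3_IC), 24.3 (1_10_IC), 14 (4_4_IC) and 6.43 (4_5_IC) CPM in libraries labelled PWS-IC and 21 (1_1_IC), 0.656 (1_5_IC), 0.230 (1_7_IC), 22.3 (4_3_IC) and 11.8 (4_6_IC) in those labelled WT. *Hoxb5* was again highest in 3_5_Cr and 1_3_IC among the libraries labelled as mutant. It had 0.131 to 26.3 CPM in PWS-cr (median 10.2), and 0.168 (1_3_Cr), 0.222 (3_1_Cr), 9.58 (3_6_Cr), 9.58 (4_1_Cr) and 6.84 (4_2_Cr) in WT littermates. Libraries labelled PWS-IC had 25.6 (1_3_IC), 18.6 (1_10_IC), 11.7 (4_4_IC) and 5.95 (4_5_IC), and those labelled WT 15.8 (1_1_IC), 0.337 (1_5_IC), 0.115 (1_7_IC), 15.5 (4_3_IC) and 10.8 (4_6_IC).

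*Hoxb8*, active in the spinal cord and lowermost hindbrain, was distributed differently. It had 0.0218 to 5.33 CPM in PWS-cr libraries (median 1.43), and 0.0932 (1_3_Cr), 0.0185 (3_1_Cr), 0.285 (3_6_Cr), 1.07 (4_1_Cr) and 1.65 (4_2_Cr) in WT. It reached far higher levels in the PWS-IC series, with 21.3 (1_3_IC), 12.9 (1_10_IC), 2.70 (4_4_IC) and 0.190 (4_5_IC) in libraries labelled PWS-IC and 13 (1_1_IC), 0.0187 (1_5_IC), 0.230 (1_7_IC), 8.64 (4_3_IC) and 1.97 (4_6_IC) in those labelled WT. The 4 libraries above 5.33 CPM were thus 2 labelled PWS-IC and 2 labelled WT. *Hoxa6*, *Hoxb6* and *Hoxb7* rank between these genes in number. *Hoxb6* had 0 counts in 1_1_Cr, 1_2_Cr, 2_2_Cr, 3_1_Cr and 1_5_IC, where 0 counts allow up to 0.0555 to 0.0655 CPM, and 334 in 1_3_IC.

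The head-to-tail composition of the Hox RNA therefore differed between libraries as well as its amount. The FPKM ratio of *Hoxa5* to *Hoxb5*, paralogues of the same group, stayed between 1.54 (exact 95% binomial interval 1.37 to 1.75, 4_1_Cr) and 2.13 (1.96 to 2.32, 4_3_IC) in the 13 libraries with at least 100 counts of the pair. The ratio of *Hoxb4* to *Hoxb5*, neighbours in cluster B, stayed between 0.169 and 0.363. The FPKM ratio of *Hoxb8* to *Hoxb5*, in contrast, ran from 0.0314 (0.0178 to 0.0515, 3_6_Cr) and 0.0338 (0.0173 to 0.0598, 4_5_IC) to 0.870 (0.789 to 0.960, 1_1_IC) and 0.880 (0.807 to 0.959, 1_3_IC). It was 0.118 to 0.255 in the other 5 PWS-cr series libraries with enough counts, and 0.193 (4_6_IC), 0.244 (4_4_IC), 0.590 (4_3_IC) and 0.734 (1_10_IC) in the rest of the PWS-IC series. The order of the libraries crossed genotype in both series. In litter 4 of the PWS-IC series WT and PWS-IC pups alternated from the highest ratio to the lowest. The intervals of the middle pups, 4_4_IC (0.202 to 0.293) and 4_6_IC (0.155 to 0.240), overlapped, so that their order is uncertain.

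**Figure D3:**
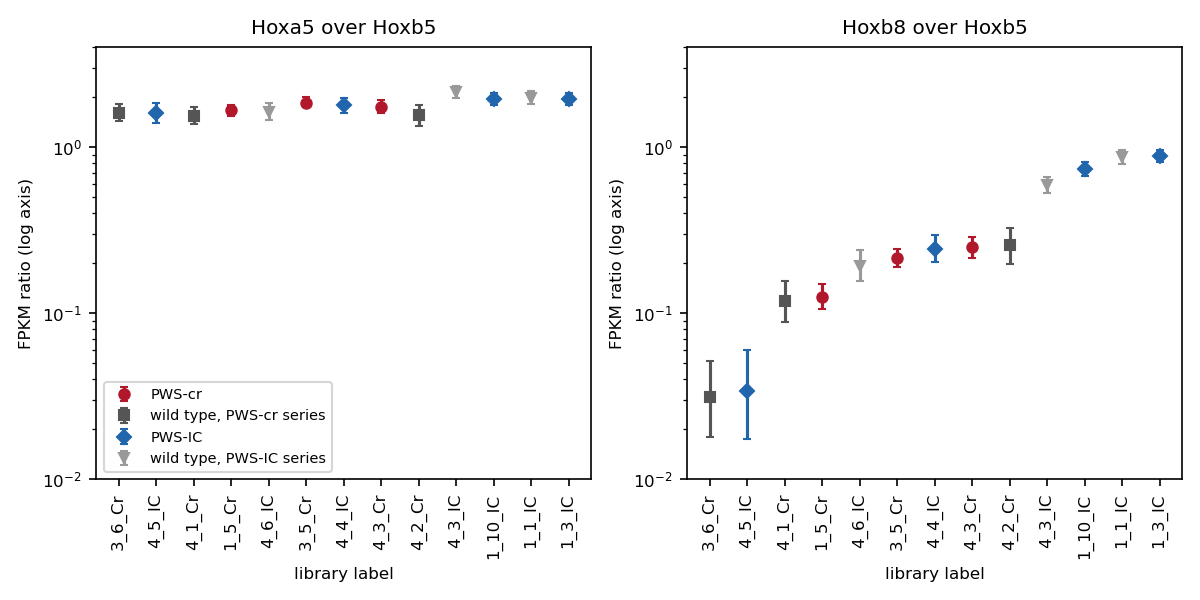
FPKM ratio of Hoxa5 to Hoxb5 (left) and of Hoxb8 to Hoxb5 (right) on a log axis, in the 13 libraries with at least 100 counts of the pair, in the order of the right panel; bars are exact 95% binomial intervals. The left ratio stays between 1.54 and 2.13, while the right one runs from 0.0314 to 0.880, with mutant and WT libraries mixed along the order.

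The FPKM ratio of *Hoxa5* to *Hoxa2*, given for the 14 libraries with at least 100 counts of both together, ran from 0.467 (0.311 to 0.690) in 2_2_Cr and 1.94 (1.61 to 2.34) in 4_2_Cr to 12.9 (10.6 to 15.8) in 1_3_IC. The library 2_2_Cr had 81 counts of *Hoxa2*, 100 of *Hoxb3*, 40 of *Hoxa5* and 0 of *Hoxa6*, *Hoxb6* and *Hoxb7*. Other libraries with little Hox RNA, too low in counts for this ratio, also had more *Hoxa2* than *Hoxa5* counts, among them 1_3_Cr (53 and 13), 3_1_Cr (24 and 9) and 1_7_IC (47 and 14).

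The nearer the numbers of a pair of Hox genes, the more alike was their order over the libraries, apart from the 1 pair whose numbers differ by 7. For the 18 Hox genes tested in both series, the Spearman rho of CPM over the 20 libraries had a median of 0.96 between genes with the same number (16 pairs), 0.94 between genes whose numbers differ by 1 (45 pairs), 0.87 for a difference of 3 (26 pairs) and 0.75 for a difference of 6 (3 pairs). Without 1_3_IC and 1_7_IC these medians were 0.95, 0.94, 0.85 and 0.75 over 18 libraries. Pairs in the same cluster had a median of 0.88 (40 pairs) and pairs in different clusters 0.90 (113 pairs). The genes share libraries, litters and depth, so that these values describe the data and carry no test.

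The genes of groups 10 to 13, which pattern the lumbar and sacral cord, limbs and genitalia, were close to the limit of detection. Their summed CPM was 0.349 to 1.25 in the PWS-cr series and 0.0222 to 0.131 in the PWS-IC series. *Hoxc10*, a lumbar gene, had 0.0184 to 0.260 CPM in PWS-cr libraries (median 0.104) and 0.261 (1_3_Cr), 0.204 (3_1_Cr), 0.160 (3_6_Cr), 0.332 (4_1_Cr) and 0.268 (4_2_Cr) in WT. In the PWS-IC series it had 1 count in 4_5_IC and 0 in every other library. *Hoxc11* had 0.0546 to 0.502 CPM in PWS-cr libraries (median 0.210) and 0.168 (1_3_Cr), 0.130 (3_1_Cr), 0.178 (3_6_Cr), 0.498 (4_1_Cr) and 0.268 (4_2_Cr) in WT, and 0 counts in all 9 PWS-IC series libraries. Both genes thus had at least 1 count in every library of the PWS-cr series (1 to 18 for *Hoxc10* and 3 to 27 for *Hoxc11*), against 1 and 0 counts in all 9 PWS-IC series libraries together.

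*Hoxd13*, the last gene of cluster D, had 1 to 10 counts in the PWS-cr series and 1 to 4 in the PWS-IC series. Its CPM was 0.0401 to 0.194 (median 0.0739) in PWS-cr and 0.0186 (1_3_Cr), 0.0370 (3_1_Cr), 0.0712 (3_6_Cr), 0.0554 (4_1_Cr) and 0.144 (4_2_Cr) in WT. PWS-IC libraries had 0.0222 (1_3_IC), 0.0574 (1_10_IC), 0.0571 (4_4_IC) and 0.0635 (4_5_IC), and WT littermates 0.0523 (1_1_IC), 0.0562 (1_5_IC), 0.0493 (1_7_IC), 0.0671 (4_3_IC) and 0.0393 (4_6_IC). Counts this low separated no groups. *Hoxa10*, *Hoxa11*, *Hoxc11*, *Hoxc12* and *Hoxd12* had 0 counts in every PWS-IC series library.

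*Hoxc8*, *Hoxc9*, *Hoxc10* and *Hoxc11*, adjacent in cluster C, were high in other libraries than the genes of groups 5 to 8 were. Their summed CPM in the PWS-cr series was highest in 4_1_Cr (1.62), 2_2_Cr (1.58) and 4_2_Cr (1.34) and lowest in 3_5_Cr (0.165), the library of that series with the most Hox RNA. It was 0 to 0.0986 in the PWS-IC series, which was tabulated separately, so that the difference between series cannot be told apart from a difference between 2 sets of libraries. Over the 11 PWS-cr series libraries these 4 genes had a Spearman rho of -0.21 with the summed CPM of groups 5 to 9, and of 0.75 with the summed CPM of 1117 olfactory receptor genes, a large family used in the nose and scarce in brain, which was chosen after the values were seen. The olfactory receptor genes had 17.6 to 45.8 summed CPM in the PWS-cr series and 8.30 to 20 in the PWS-IC series. What raised both sets in the same libraries was not tested.

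**Figure D4:**
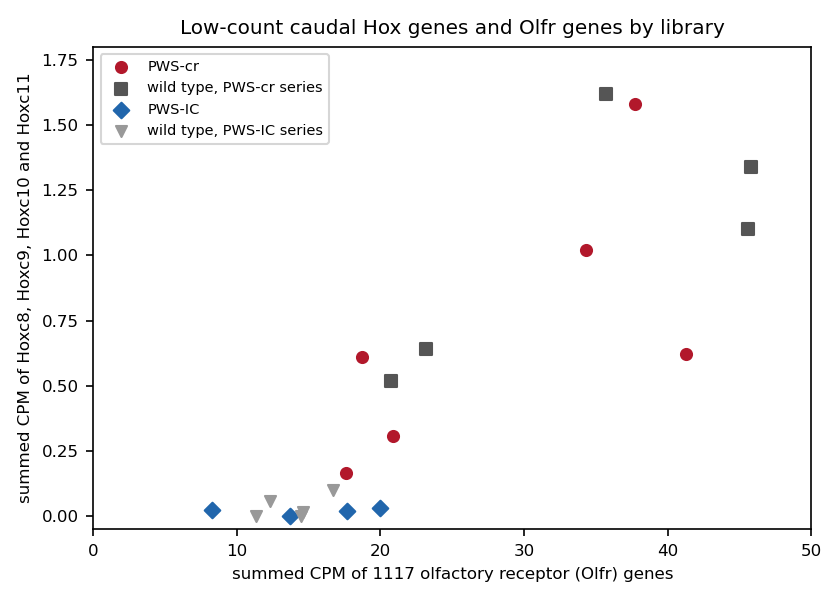
Summed CPM of Hoxc8, Hoxc9, Hoxc10 and Hoxc11 (y axis) against summed CPM of 1117 Olfr genes (x axis), 1 point per library, by genotype and series. The 9 PWS-IC series libraries sit at 0 to 0.0986 on the y axis, and the 11 PWS-cr series libraries run from 0.165 to 1.62.

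Genotype was tested within litters by edgeR's quasi-likelihood test over all genes that reached 10 counts in 4 or more libraries. In the PWS-cr series 26 of the 39 Hox genes passed this filter, and 0 were called at an adjusted p under 0.05, where 3 of 22172 genes were called (0.0135%). DESeq2 called 0 of the same genes, but gave 10 of the 26, among them *Hoxc4*, *Hoxa4*, *Hoxa5* and *Hoxb5*, no adjusted p. At an unadjusted p under 0.05 there were 9 Hox genes by edgeR, 5 higher (0.821% of all genes were) and 4 lower (1.25%) in PWS-cr, and 6 by DESeq2, against 2.07% of all genes by edgeR. This count depended on the litter term: it was 1 without litter. It was 4 without the library 3_5_Cr and 5 without 4_1_Cr. PWS-cr and WT libraries overlapped for each of the 26 genes (0.158% of all genes did not overlap). With no filter on low counts 39 Hox genes entered the fit and edgeR called 2, *Hoxb7* and *Hoxb8* (0.0220% of 45478 genes were called).

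The 5 with higher values were *Hoxc5*, *Hoxa6*, *Hoxb6*, *Hoxb7* and *Hoxb8*. For *Hoxb7* the log2 fold change was 3.48 (SE 0.823, unadjusted p = 0.00163, adjusted p = 1.000 by edgeR). For *Hoxb8* it was 3.24 (SE 0.965, unadjusted p = 0.00691, adjusted p = 1.000 by edgeR), and between 2.17 and 4.64 when 1 library at a time was left out. *Hoxa5* and *Hoxb5*, at 2.59 (SE 1.34) and 2.45 (SE 1.31), had wider errors for their size, as did *Hoxc4* at 1.81 (SE 1.11), *Hoxa4* at 1.94 (SE 1.07) and *Hoxa2* at 1.01 (SE 0.891). Without 1_5_Cr, *Hoxa2* was at 0.34 and *Hoxc4* at 1.05. Without the litter term *Hoxa5* was at 1.30, *Hoxb5* at 1.14, *Hoxc4* at 0.75, *Hoxa4* at 0.93, *Hoxa2* at 0.44 and *Hoxb8* at 1.83. In each litter with both genotypes the library with the most RNA of groups 5 to 9 was a PWS-cr pup (1_5_Cr, 3_5_Cr and 4_3_Cr), but the lowest libraries of litter 1 were PWS-cr pups too.

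The 4 with lower values were *Hoxc8*, *Hoxb9*, *Hoxc9* and *Hoxc10*, genes near the limit of detection. Their log2 fold changes were -1.20 (SE 0.333), -0.88 (SE 0.371), -1.39 (SE 0.404) and -1.37 (SE 0.414), with adjusted p = 1.000 for each by edgeR. *Hoxc11*, next to them, had -0.52 (SE 0.502). The differences of the tested genes had a median of 1.46 in groups 1 to 4 (11 genes, 10 of them positive), and in groups 5 to 9 ran from -1.39 to 3.48 (13 genes, 8 positive). Over all 26 genes the median was 1.41, against 0.00 over all genes tested.

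In the PWS-IC series 18 Hox genes passed the filter. As labelled, 0 were called by edgeR and 0 had an unadjusted p under 0.05, where 0 of 22367 genes were called (0%) and 8.23% had an unadjusted p under 0.05; DESeq2 called 0 and had 0 at that unadjusted p. All 18 log2 fold changes were positive, with a median of 0.71 against 0.00 over all genes, and each group overlapped the other (2.24% of all genes did not). Without the libraries labelled 1_3_IC and 1_7_IC the 17 genes tested had a median of 0.07, 11 positive and 6 negative. Again 0 were called by either tool and 0 had an unadjusted p under 0.05, where edgeR called 0.242% of 21913 genes and 12.8% had such an unadjusted p; 0 did not overlap (10.3% of all genes). *Hoxa5* went from 0.81 (SE 1.03) to 0.07 (SE 0.712), *Hoxb5* from 0.90 (SE 1.03) to 0.18 (SE 0.703), *Hoxc4* from 0.73 (SE 0.734) to 0.09 (SE 0.537), *Hoxa4* from 1.01 (SE 0.720) to 0.29 (SE 0.505) and *Hoxa2* from 0.59 (SE 0.338) to 0.39 (SE 0.299). *Hoxb8* went from 0.43 (SE 1.36) to -0.51 (SE 1.06). With no filter on low counts and all libraries edgeR called 7 of 34 Hox genes (1.11% of 42507 genes were called), namely *Hoxd3*, *Hoxa4*, *Hoxc4*, *Hoxa5*, *Hoxb5*, *Hoxc5* and *Hoxb6*. The log2 fold change of *Hoxa5* in that fit was 0.83 (SE 0.151). All 4 PWS-IC libraries are labelled female and 4 of the 5 WT libraries male, so that sex and genotype can hardly be told apart. With sex in the fit the log2 fold change of *Hoxa5* was -0.40 (SE 1.59) and that of *Hoxb5* was -0.37 (SE 1.59), using the labelled sexes.

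The difference between the genotype effects of both models was tested in 1 fit over all 20 libraries. Of 26 Hox genes 0 were called by edgeR and 0 had an unadjusted p under 0.05, where 0 of 23771 genes were called (0%) and 4.72% had an unadjusted p under 0.05; DESeq2 was not run on this contrast. The difference, PWS-IC minus PWS-cr, was -2.81 (SE 1.94) for *Hoxb8* and -1.84 (SE 1.92) for *Hoxa5*, so that neither an equal effect nor a difference of several log2 units could be set apart. Without 1_3_IC and 1_7_IC it was -3.71 (SE 1.76) for *Hoxb8* and -2.48 (SE 1.75) for *Hoxa5*. Again 0 Hox genes were called by edgeR (0.182% of 23574 genes were), and 1, *Hoxb7* at -3.52 (SE 1.45), had an unadjusted p under 0.05 (8.16% of all genes).

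**Figure D5:**
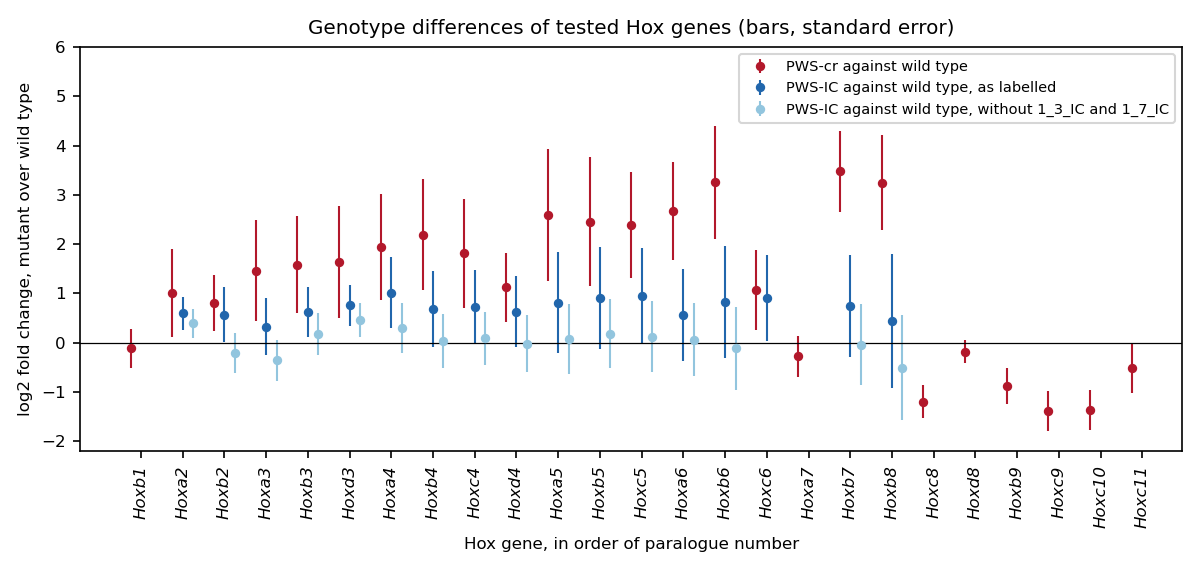
Log2 fold change of mutant over WT (y axis) for 25 tested Hox genes, in order of paralogue number (x axis), with standard errors, in PWS-cr and in PWS-IC with all libraries and without 1_3_IC and 1_7_IC. None of them was called with the filter on low counts. The PWS-cr values are largest at Hoxb7 (3.48) and are negative at Hoxb1, Hoxa7, Hoxc8, Hoxd8, Hoxb9, Hoxc9, Hoxc10 and Hoxc11, and the PWS-IC values lie lower without the pair of libraries.

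Other genes of the Hox pathway and of the clusters' surroundings were read from lists, none of whose members was called in any of the comparisons by edgeR. The 9 cofactors of the TALE class, homeodomain proteins that bind DNA together with Hox proteins, had a summed CPM of 1020 to 1210 in all 20 libraries, with *Meis2* (245 to 350), *Pbx3* (93.9 to 122) and *Meis3* (45.2 to 71.1) among the most abundant. The 21 upstream regulators, among them the Trithorax and Polycomb genes *Kmt2a*, *Rnf2*, *Bmi1* and *Suz12*, summed to 616 to 852 CPM. The 15 measured genes that flank the clusters summed to 1640 to 1980 CPM. The flanking list was led by *Hnrnpa1*, *Cbx5*, *Hnrnpa3* and *Snx10*. These sums rest on their abundant members. Among scarcer flanking genes, *Evx1*, the homeobox gene at the end of cluster A, had 0.221 to 2.02 CPM and a rho of 0.90 with groups 1 to 4, and *Skap2*, at the other end, had 6.63 to 13.7 CPM and a rho of 0.86, both chosen after their values were seen. At an unadjusted p under 0.05 by edgeR there were 0 of 9 cofactors, 0 of 16 tested regulators and 1 of 14 tested flanking genes in PWS-cr, and 0, 3 and 1 in PWS-IC without the pair of libraries, where the shares of all genes were 2.07% and 12.8%.

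Of 20 antisense and noncoding transcripts of the clusters 18 were in both tables, and their summed CPM followed the Hox genes, from 0.371 (1_1_Cr) to 8.05 (3_5_Cr). *Haglr*, which lies in cluster D, had 0 to 3.46 CPM and a Spearman rho of 0.96 with groups 1 to 4 over the 20 libraries. *Hotairm1*, which lies in cluster A, had 0.0437 to 1.33 CPM and a rho of 0.97. Without strand, part of such counts can come from the Hox genes themselves.

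Markers of regions and cell types moved with the Hox genes to different degrees. The list of hindbrain and spinal neurons (28 measured genes, none at 0 in every library) summed to 96.2 to 305 CPM in PWS-cr, 119 to 292 in their WT littermates, 178 to 214 in PWS-IC and 148 to 203 in theirs, with a rho of 0.94 with groups 1 to 4 and 0.78 with groups 5 to 9. *Slc6a5*, the glycine transporter of inhibitory neurons of the hindbrain and cord, had 1.16 CPM in 1_2_Cr, 3.41 in 1_1_Cr and 3.87 in 3_1_Cr, and 59 to 59.9 in 3_5_Cr and 1_5_Cr. *Lhx1* (17.7 to 47.5), *Isl1* (13.5 to 32.6) and *Gata3* (9.58 to 27.0), which other regions also use, varied less, and *Isl1* had a rho of -0.57 with groups 5 to 9, opposite to its list. The forebrain list of 15 genes summed to 1030 to 1570 CPM in PWS-cr, 714 to 1580 in WT littermates, 1250 to 1400 in PWS-IC and 1250 to 1450 in theirs, with a rho of -0.77 with groups 1 to 4. Its leading members *Bcl11b* and *Neurod6* were present in every library. In 4_2_Cr the forebrain sum was the lowest (714), and the hindbrain sum (292) was among the highest. At an unadjusted p under 0.05 by edgeR there were 2 of 27 tested hindbrain and spinal genes and 2 of 15 forebrain genes in PWS-cr, and 3 of 26 and 3 of 15 in PWS-IC without the pair, where the shares of all genes were 2.07% and 12.8%. The part of these markers in the Hox differences was not tested.

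Lists of cells outside the brain, and of other cells and regions within it, were read in the same way. Sensory ganglion neurons (12 genes, none at 0 in every library) summed to 48.6 to 84.3 CPM in PWS-cr, 50.7 to 81.7 in WT littermates, 75.7 to 94.8 in PWS-IC and 61.4 to 70.4 in theirs, with a rho of 0.77 with groups 5 to 9; their leading members were *Isl1* (rho -0.57), *Pou4f1* (0.60), *Sncg* (0.88) and *Prph* (0.87), and *Prdm12* (-0.50) and *Scn10a* (-0.34) also ran opposite to the sum. Schwann cells (8 genes, led by *Mbp*, *Sox10*, *Pmp22* and *Prx*, several of them also used in the brain) summed to 76.1 to 176 CPM, with a rho of 0.82. Muscle and cartilage genes, led by *Col2a1*, *Acta1*, *Myh8* and *Col9a1*, summed to 27.9 to 96.7 CPM with a rho of 0.12, and were highest in 3_5_Cr (96.7) and 4_2_Cr (70.4). Meninges and fibroblasts, led by *Ptgds*, *Col1a2*, *Col3a1* and *Pdgfra*, had a rho of 0.53 (491 to 1210 CPM), the oligodendrocyte lineage, led by *Olig1*, *Mbp*, *Cnp* and *Olig2*, 0.57 (242 to 478 CPM), and midbrain and cerebellum, led by *Zic1*, *Cbln1*, *Zic4* and *Pax6*, 0.28 (353 to 608 CPM). Their part in the Hox differences was not tested either.

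Among 21111 genes tested in both series, the 10 outside the Hox clusters whose CPM over the 20 libraries ranked most like the sum of groups 5 to 9 were *Prrxl1* (rho 0.95), *Lbx1* (0.93), *Serpinb1b* (0.93), *Aldoc* (0.91), *Cplx1* (0.90), *Lamp5* (0.89), *Agtr2* (0.89), *Sncg* (0.88), *Calca* (0.88) and *Calcb* (0.88). The median over all genes compared was -0.0060. *Prrxl1*, a homeobox gene of sensory and dorsal horn neurons also known as *Drg11*, had 0.481 (3_1_Cr) to 7.45 CPM (3_5_Cr), and its rho was 0.87 within the PWS-cr series and 1.0 within the PWS-IC series. *Lbx1*, which specifies dorsal neurons of the hindbrain and cord, had 0.221 (1_2_Cr) to 7.69 CPM (3_5_Cr). The 5 with the most opposite order were *Tstd1* (-0.81), *Lhx6* (-0.80), a gene of forebrain interneurons with 28.3 to 71.1 CPM, *Ripor2* (-0.79), *Clca3a1* (-0.78) and *Dcp1b* (-0.77).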

How the data were processed

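Whole brains of P0 pups were sequenced as unstranded poly(A) libraries. Per the submitters' processing notes and the study's methods, reads were aligned to mm10 with STAR, counted per gene with featureCounts and quantified with kallisto, and compared with DESeq2 (versions are not given in the sources used here). The raw counts deposited by the authors were used for every test and for CPM. The FPKM values deposited by the authors were used to compare genes with each other, and the TPM values deposited by the authors were used as an alternative. The 20 columns of size-factor-scaled counts were not used, nor were the authors' own comparison columns (log2 fold changes, standard errors, statistics, p-values and adjusted p-values). Of 22 labelled libraries 20 had a column in the tables and 2 were not analysed here.

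Hox genes were matched by symbol. CPM used TMM factors computed once over the 20 libraries. Genotype was tested in each series with edgeR 4.0.16 (quasi-likelihood, litter as covariate, genes reaching 10 counts in 4 or more libraries, Benjamini-Hochberg adjustment over all of them, calls at 0.05) in R 4.3.3, and with DESeq2 1.42.0 as an alternative. The edgeR step was tested on simulated data. The SE given with an edgeR log2 fold change was derived from the test. It is the size of the change divided by the square root of the test's F statistic. The p-values measure the spread between pups. Sums over Hox genes carry no test. Gene models were those of GENCODE M21. The alternatives were DESeq2, other scalings, other filters, no litter term, sex as a term, leaving out each library, TPM and Pearson correlation. DESeq2 without 1_3_IC and 1_7_IC, the spread, order and pair correlations without them, and the leaving out of libraries from the interaction and the sums were chosen after seeing the data.

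Values per library are given for the 3 Hox genes of each range of paralogue groups with the highest mean FPKM. Of other lists up to 4 members with the highest mean CPM are named, as are the 10 genes most like and the 5 least like groups 5 to 9. Other genes named with values (*Slc6a5*, *Hotairm1*, *Haglr*, *Meis1*, *Evx1*, *Skap2* and the Hox genes given by counts) serve as examples. The members and lists were chosen with earlier results of these data known. Some genes and sequences are not reported here.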

Additional observations from a re-analysis of the deposited data

Results flagged for a closer look

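In 48 groups of 4 to 6 libraries, the highest or lowest value of a named Hox gene stood apart from the rest in 2, and chance flags about 1 in 20 groups. *Hoxc10* in PWS-IC was flagged because 4_5_IC, at 0.0159 CPM, was the only library above 0. This is 1 count and lies under the limit that 0 counts allow. *Hoxd13* in PWS-IC was flagged because the library labelled 1_3_IC, at 0.0222 CPM and 1 count, lay below the other 3 (0.0571 to 0.0635 CPM, 3 to 4 counts).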

How the results depend on the processing

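No Hox gene was called in any comparison when 1 library at a time was left out, 0 to 0 in each, and the ratio of highest to lowest library then ran from 45.4 to 63.7 for groups 1 to 4 and from 73.7 to 99.5 for groups 5 to 9. Calls appeared only with no filter on low counts, 2 in PWS-cr and 7 in PWS-IC, and the cause was not tested. With sex as a term, the PWS-IC log2 fold changes turned to -0.34 (SE 1.15) for *Hoxc4*, -0.10 (SE 0.537) for *Hoxa2*, -0.40 (SE 1.59) for *Hoxa5*, -0.37 (SE 1.59) for *Hoxb5* and -0.52 (SE 2.04) for *Hoxb8*, while *Hoxa4* was 0.11 (SE 1.18). Markers go against the labelled sex of 1_3_IC and 1_7_IC. *Hoxb8* in PWS-IC was -0.51 without 1_3_IC and 1_7_IC, -0.63 by DESeq2 without them, and -0.17 to 1.86 when 1 library was left out. The *Hoxa2* difference between models ran from -0.67 to 0.38, the latter without 1_5_Cr. Of the 10 genes most like groups 5 to 9, Pearson correlation kept 4. With a minimum of 10 counts in every library no Hox gene remained in the PWS-cr series, so that setting gave no value there. No paired analysis was possible because replicate numbers only follow accession order and pair no pups, and litter is already in the fits. Depth limits groups 10 to 13, where a library with 0 counts allows up to 0.0483 to 0.0655 CPM.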
